A study of Mus musculus with 4 samples.

Results

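The constitutive proteasome was followed through 34 genes, chosen by name: Psma1 to Psma7 and Psmb1 to Psmb7, which encode the core particle, and Psmc1 to Psmc6 and Psmd1 to Psmd14, which encode the regulatory particle and helpers of its assembly. Every non-control probe whose accession is a RefSeq transcript of one of these genes was taken, which gave 54 probes out of 33767 probes with a gene name, and 34 genes out of 23462. The core particle had 14 genes on 22 probes and the regulatory particle 17 genes on 29 probes. Psmd5, Psmd9 and Psmd10, with 1 probe each, assist assembly of the base and are absent from the finished particle, so they were kept apart. The rule uses gene names and no measured value.

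Total RNA from whole livers of male mice, labelled with Cy5, was measured on Agilent 1-colour arrays, 1 array per group. The control array held liver of naturally aged mice, and the diabetic array liver of aged mice carrying a type 2 diabetes model. The metformin array held liver of such aged diabetic mice given metformin, a glucose-lowering biguanide, and the combination array liver of aged diabetic mice given astragalus polysaccharide, a carbohydrate fraction of Astragalus root, with metformin. All samples carry 60 d in their titles, with no word on what the days count from. Strain, age in months, doses, how diabetes was brought about and whether mice were pooled stayed unstated in the sources used here. With no replicates, no difference below could be tested, and each is one between single arrays, whose number limits the precision.

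The proteasome is the protease complex that degrades ubiquitin-tagged proteins in the cytosol and nucleus of every cell, including hepatocytes. Its core particle is a barrel of stacked rings: outer alpha rings (Psma genes) that gate the entrance, and inner beta rings (Psmb genes) of which Psmb5, Psmb6 and Psmb7 carry the chymotrypsin-like, caspase-like and trypsin-like active sites. The regulatory particle caps the barrel. Its base holds a ring of ATPases (Psmc genes) that unfold and feed substrates, with the scaffold subunits Psmd1 and Psmd2 and the ubiquitin receptor Psmd4, and its lid holds Psmd14, which cuts ubiquitin off substrates, with structural subunits. The subunits are built into the complex in fixed proportion, and in mammals the transcription factor encoded by Nfe2l1 is known to raise their genes together when proteasome activity drops.

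Promoter sequence is shown for 5 members on which the comparisons below turn: Psma1, the core gene with the most negative diabetic difference, the catalytic Psmb5, the ATPase gene Psmc6, the ubiquitin receptor gene Psmd4, and the assembly helper gene Psmd9. Each line gives the 250 bases before the annotated start, 5′ to 3′ on the gene's strand, from RefSeq on GRCm38.p6. Capitals mark matches to any of 4 motifs searched on both strands: TGACNNNGC (core of the antioxidant response element, the kind of site bound by the Nfe2l1 and Nfe2l2 proteins), CCAAT (the box bound by nuclear factor Y), CCGGAAG (a site of ETS-family factors) and GAANNTTC (core of the heat shock element).
Psma1, chr7:114276117-114276366, minus strand: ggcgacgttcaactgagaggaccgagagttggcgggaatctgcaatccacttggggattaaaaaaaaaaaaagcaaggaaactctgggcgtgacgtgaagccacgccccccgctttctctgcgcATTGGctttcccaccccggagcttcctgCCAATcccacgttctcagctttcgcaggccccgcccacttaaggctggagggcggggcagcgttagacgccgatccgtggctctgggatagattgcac
Psmb5, chr14:54617996-54618245, minus strand: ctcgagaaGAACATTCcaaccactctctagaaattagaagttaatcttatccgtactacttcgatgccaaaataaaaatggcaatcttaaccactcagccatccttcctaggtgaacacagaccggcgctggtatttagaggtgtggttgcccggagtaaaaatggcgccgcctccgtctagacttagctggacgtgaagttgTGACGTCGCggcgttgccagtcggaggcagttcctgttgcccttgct
Psmc6, chr14:45329574-45329823, plus strand: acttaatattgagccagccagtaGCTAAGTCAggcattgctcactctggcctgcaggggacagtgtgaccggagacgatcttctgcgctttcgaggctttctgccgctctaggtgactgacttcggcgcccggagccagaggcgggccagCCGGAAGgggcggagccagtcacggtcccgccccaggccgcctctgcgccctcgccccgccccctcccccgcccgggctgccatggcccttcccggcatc
Psmd4, chr3:95042615-95042864, minus strand: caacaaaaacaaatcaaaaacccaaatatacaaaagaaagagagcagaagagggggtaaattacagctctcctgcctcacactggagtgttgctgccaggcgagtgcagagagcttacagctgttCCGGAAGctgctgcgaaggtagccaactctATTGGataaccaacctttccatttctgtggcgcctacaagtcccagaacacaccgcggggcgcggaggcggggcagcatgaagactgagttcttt
Psmd9, chr5:123227940-123228189, plus strand: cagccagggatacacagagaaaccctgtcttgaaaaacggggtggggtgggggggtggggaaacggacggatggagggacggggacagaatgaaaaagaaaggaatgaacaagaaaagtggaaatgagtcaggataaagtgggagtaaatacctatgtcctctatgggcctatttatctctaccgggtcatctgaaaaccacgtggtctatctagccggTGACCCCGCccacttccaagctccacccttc

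Promoter windows of 300 bases, 250 before to 50 after the start, were matched for 28 of the 34 members. Psmb1, Psmb2, Psmb7, Psmc3, Psmd3 and Psmd7 are named only. A window held CCGGAAG in 9 of 14 regulatory particle genes (Psmc1, Psmc2, Psmc6, Psmd2, Psmd4, Psmd6, Psmd11, Psmd12 and Psmd13) and in 1 of 11 core genes (Psma6). Among 27025 genes with a window, 9.93% held it. CCAAT stood in 6 of 11 core genes and 4 of 14 regulatory genes, against 41.1% of all genes. TGACNNNGC stood in 5 members, Psmb5, Psmb6, Psmc6, Psmd12 and Psmd9, which is 17.9% of the 28 against 14.0% of all genes. GAANNTTC stood in Psmb5 alone, 3.57% of members against 9.04% of all genes. None of the 4 motifs contains another. These matches describe the letters in the windows, and no binding was measured here.

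Proteasome genes were bright in every liver sample. Levels are log2 processed signals over the array's 75th percentile, with a constant taken off each array so that the arrays share the same median over 12702 genes. A member's mean level over the arrays ran from 1.86 to 4.64 with a median of 3.93, while the median of all named genes was 0.32. Core genes had a median of 4.27 and regulatory genes one of 3.79, a difference in signal that also reflects the probes and is no measure of subunit ratio. All member probes that were kept were well above background and none was saturated. Psmb1 had no usable value on the control array and Psmd8 none on the metformin array, because the scanner software marked their only spots as outliers, so 32 members were measured on all 4 arrays. No level of 1 gene is set against that of another here, since probes differ in affinity, and these medians only place the members on the signal range of the arrays. Fewer cells of a type cannot be told apart from less RNA per cell in whole liver.

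In what follows, 4 levels given together are those of the control, the diabetic, the metformin and the combination array, always in that order. On these levels the metformin array was the low one for most members. Of the 32 complete members, 27 had their lowest level there, against 29.9% of all named genes and 61.9% of 821 genes in the middle 50% of the members' brightness range (called genes of like brightness). This held for 12 of 13 core genes and 15 of 16 regulatory genes. The exceptions were Psma7, lowest on the diabetic array, Psmd11, a lid gene lowest on the control array, and all 3 assembly helpers. Levels here are means over probes. Among the 27 genes, a probe of Psma4, Psmb4, Psmd2, Psmd4 and Psmd13 had its own lowest level on another array. Psmb4 was barely lower on the metformin than on the diabetic array, at 3.74 and 3.75. The highest level lay on the control array for 10 of 13 core genes, against 27.4% of all named genes and 57.6% of genes of like brightness. Those genes match the members as a whole, and core genes were brighter: the core median of 4.27 lay above the upper end of that range, 4.26. The share of genes of like brightness is thus not matched to core genes. On the combination array it lay for 9 of 16 regulatory genes, against 22.9% of all named genes and 22.7% of genes of like brightness. The arrays were close together: the median range of a member over the 4 arrays was 0.31, against 0.66 for all genes and 0.36 for genes of like brightness.

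**Figure D1:**
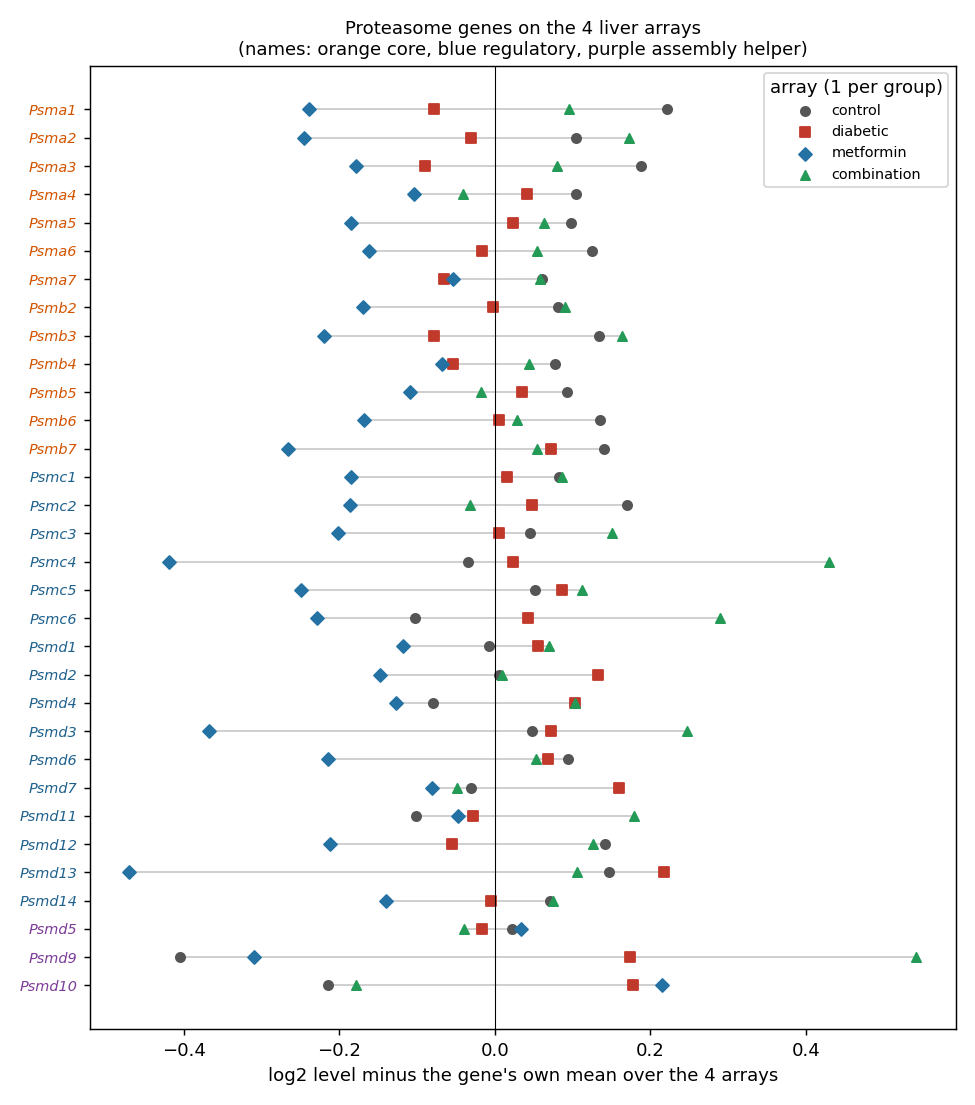
Level of each of the 32 complete proteasome genes on the 4 arrays as log2 difference from the gene's own mean (horizontal axis), with 1 symbol per array and a grey line for the range. On means over probes, the metformin symbol is leftmost for 27 of 32 genes, and Psmd9 has the widest range, 0.95.

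The diabetic array was first set against the control array, the comparison for the diabetes model itself. No member was at least 1.5-fold apart, whereas 16.3% of 13475 named genes were higher and 11.2% lower by that fold, as were 4.72% in either direction of 720 genes of like brightness. All 13 measured core genes stood below 0, with a median centred log2 difference of -0.13, and 11 of 17 regulatory genes stood above 0, with a median of 0.06. Of the 720 genes of like brightness, 529 stood below 0 and 191 above. Core genes were brighter than that set, with a median level of 4.32 against 3.97, so it is not matched to them. Every difference between arrays here and below is centred, that is, the median difference of all genes measured on both arrays was taken off. The core median lay 0.19 below the regulatory median, and no core gene reached the regulatory median. Repeated spots of the same probe give a technical SD of 0.11 for a difference on 1 spot per array, which leaves out differences between mice and hybridizations.

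In the alpha ring all 7 genes were below 0, from -0.30 to -0.06. The lowest were Psma1, with levels of 4.49, 4.19, 4.03 and 4.36 (difference -0.30), and Psma3 with 4.65, 4.37, 4.28 and 4.54 (-0.28). Both genes were high on the control and combination arrays and low on the other two. In the beta ring all 6 measured genes were below 0, led by Psmb3, a structural subunit gene, with 4.46, 4.25, 4.11 and 4.49 (-0.21). The catalytic Psmb5 had levels of 4.31, 4.25, 4.11 and 4.20 and a difference of -0.06. Psmb6 had 4.63, 4.50, 4.32 and 4.52, a difference of -0.13. Psmb7 had 3.37, 3.30, 2.96 and 3.28, a difference of -0.07. The 3 catalytic genes thus had the same order at both ends, with control highest and metformin lowest.

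In the regulatory particle the base ATPase genes straddled 0, with 3 above and 3 below, from -0.12 to 0.15. The base non-ATPase genes Psmd1, Psmd2 and Psmd4 were all above 0, led by Psmd4 at 0.18 with levels of 4.06, 4.24, 4.01 and 4.24. Psmd4 was high on the diabetic and combination arrays. Of 8 lid genes 5 were above 0. Psmd7, which encodes the partner of the deubiquitinase Psmd14 in the lid, had levels of 3.85, 4.04, 3.80 and 3.84 and differed by 0.19, standing out only on the diabetic array. Psmd12, a structural lid gene, had 4.27, 4.07, 3.91 and 4.25 and differed by -0.20, a pattern like that of the core genes above.

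The assembly helpers gave the largest positive differences of the set. Psmd9, whose product escorts ATPase subunits during base assembly, had levels of 2.34, 2.92, 2.44 and 3.29. Its diabetic level was 1.49-fold that of the control (0.58), just under the fold counted. Psmd10, which encodes gankyrin, a base chaperone also studied in liver cancer, had 2.00, 2.39, 2.43 and 2.04 and differed by 0.39, high on the diabetic and metformin arrays. Psmd5, the third helper, kept within 0.07 over the arrays. Psmd9 and Psmd10 rest on 1 probe each.

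**Figure D2:**
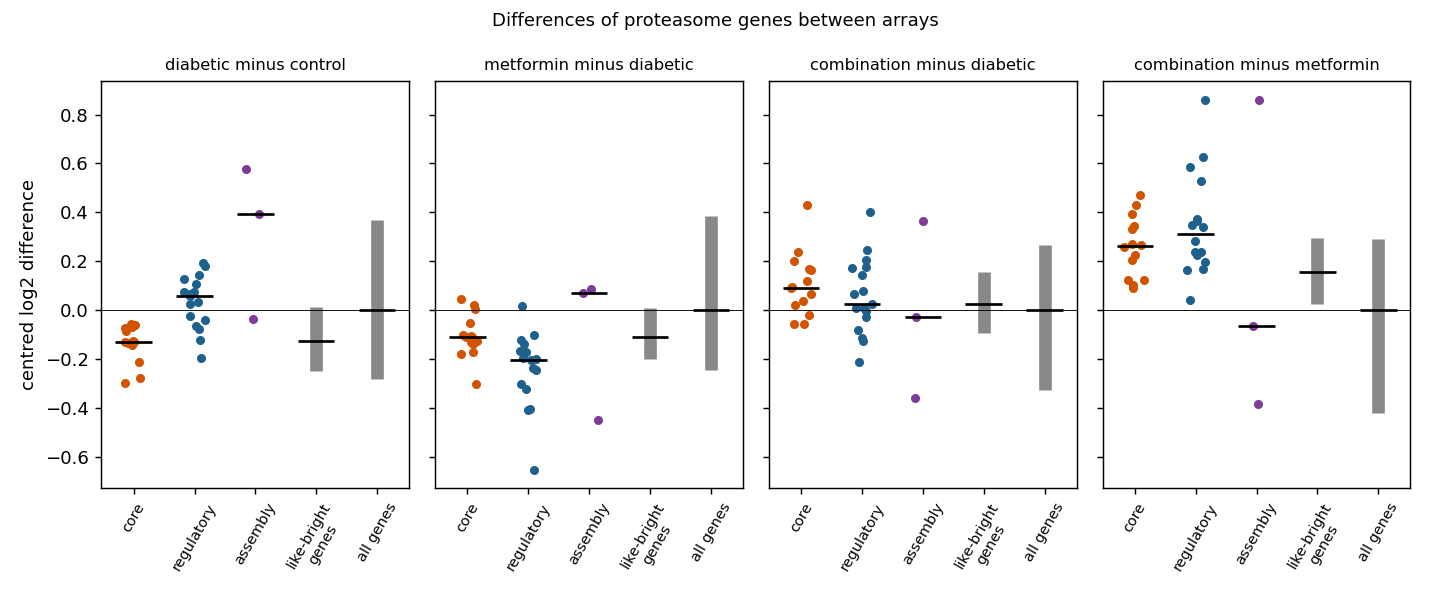
Centred log2 difference (vertical axis) of each member in the 4 comparisons, 1 dot per gene, with a black bar for the median of core (orange), regulatory (blue) and assembly (purple) genes. Grey bars span the middle 50% of genes of like brightness and of all named genes, with their median. In diabetic minus control the core dots all lie below 0 and the regulatory median is 0.06.

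Part of the split between core and regulatory genes went with brightness. Across all named genes, the diabetic minus control difference declined with brightness, from a median of 0.07 for genes at levels of 1 to 2 to -0.18 at 4 to 4.5 and -0.23 at 4.5 to 5. Genes of like brightness had a median of -0.13, against -0.06 for the 33 measured members. The all-gene trend at the brightness of each member placed core genes 0.09 below regulatory genes. With each probe set against the 500 other named probes nearest in brightness, an alternative added after the data were seen, the core median became 0.05 and the regulatory median 0.11, so that the gap shrank to -0.06. On that scale 16 of 17 regulatory genes and 8 of 13 core genes stood above 0. In the quantile-normalized values the gap was -0.07, and in the authors' deposited value table -0.06. What gives rise to the trend with brightness was not tested.

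**Figure D3:**
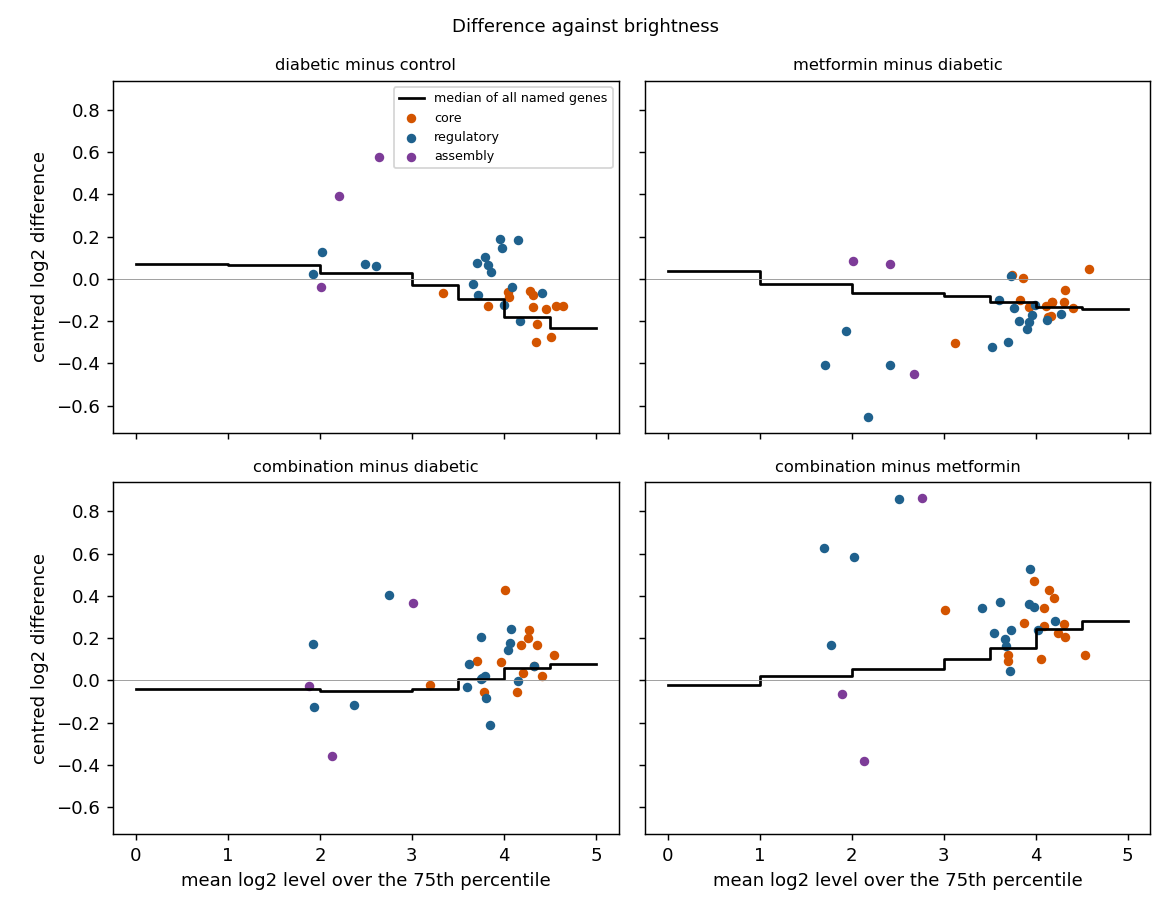
Centred log2 difference (vertical axis) against the mean log2 level of the gene on the arrays compared (horizontal axis) for each member, in 4 comparisons. The black step line is the median of all named genes per brightness bin. In diabetic minus control it declines to -0.23 at the bright end, and most core genes (orange) lie near it.

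The second comparison asks what metformin changed in diabetic liver. The 33 measured members had a median of -0.14 and 27 stood below 0. The 738 genes of like brightness had a median of -0.11, and 540 of them stood below 0. Only Psmd13, a lid gene, was at least 1.5-fold lower, and none was higher, while 8.45% of 13900 named genes were lower and 18.7% higher, and 3.39% of genes of like brightness were apart in either direction. Psmd13 had a mean level of 2.18 over a dim and a bright probe, below the median level of 3.83 of those genes of like brightness. Regulatory genes were lower than core genes here, with medians of -0.20 and -0.11, and 15 of 16 regulatory genes stood below 0. Against probes of like brightness the core median was 0.02 and the regulatory median -0.09, with 14 of 16 regulatory genes and all 6 base ATPase genes below 0. The gap on that scale was 0.11.

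Psmd13 had levels of 2.45, 2.52, 1.83 and 2.41, low on the metformin array only. Its difference of -0.65 was the mean of a dim probe at -1.19 and a bright probe at -0.12, so the call rests on 1 of its 2 probes. The next lowest were Psmd9 at -0.45, Psmc4, a base ATPase gene, at -0.41, and the lid gene Psmd3 at -0.41. The highest were Psmd5 at 0.08, Psmd10 at 0.07, Psma7 at 0.05 and Psmb4, a structural beta ring gene whose 2 probes differed in sign, at 0.02. All 4 lay within the technical SD of 0. Psmb5 stood at -0.11, Psmb6 at -0.14 and Psmb7 at -0.30, the lowest value among core genes.

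The third comparison sets the combination against untreated diabetic liver. All 34 members were measured and none was at least 1.5-fold apart, while 10.7% of 14108 named genes were higher and 14.2% lower, and 3.43% of 641 genes of like brightness were apart in either direction. The median was 0.07, beside 0.03 for genes of like brightness. Core genes had a median of 0.09 and regulatory genes one of 0.02, a gap of 0.07 that became 0.04 against probes of like brightness. The highest members were Psmb1, a structural beta ring gene, at 0.43, Psmc4 at 0.40, Psmd9 at 0.36 and Psmc6 at 0.24. The lowest were Psmd10 at -0.36, Psmd7 at -0.21, Psmd2 at -0.13 and Psmd13 at -0.12. Psmb5 stood at -0.06, Psmb6 at 0.02 and Psmb7 at -0.02, all within the technical SD of 0.

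The fourth comparison asks what astragalus polysaccharide added to metformin. The member median was 0.27 (0.08 with no centring and 0.07 in the authors' deposited table), all 14 core and all 16 measured regulatory genes stood above 0, and 4 members were at least 1.5-fold higher on the combination array, with none lower. By that fold 8.18% of 14363 named genes stood higher and 19.2% lower, and 3.99% of 776 genes of like brightness stood apart in either direction. The 4 members counted had mean levels of 1.70 to 2.76, dimmer than those genes of like brightness, whose median level was 3.73. The 3.99% thus does not describe genes as dim as these 4. Genes of like brightness had a median of 0.15 and 610 of the 776 stood above 0, so they too were mostly higher. Core genes had a median of 0.26 and regulatory genes one of 0.31, a gap of -0.05 that became 0.04 with the brightest probe. Against probes of like brightness the members' median was 0.09, with core genes at 0.02, regulatory genes at 0.13 and base ATPase genes at 0.20. On that scale 15 of 16 regulatory genes and 8 of 14 core genes were above 0.

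Psmd9 was 1.82-fold higher on the combination than on the metformin array (0.86), from the levels given above. Psmc4 had levels of 2.58, 2.63, 2.19 and 3.04, and was 1.81-fold higher on the combination than on the metformin array (0.86). Both of its probes moved that way, by 0.74 and 0.97, whereas Psmd9 has 1 probe. Psmd3 had 1.91, 1.93, 1.49 and 2.11, a difference of 0.63, with probes at 0.37 and 0.89. Psmd13 differed by 0.59, with probes at 0.02 and 1.16, and was only just over the fold counted, at 1.5004-fold. In Psmd3 and Psmd13 the dim probe carried the larger part, and the metformin array was the low one for both. Psmc4 and Psmd9 stayed at least 1.5-fold higher in 9 of 9 alternatives, Psmd3 in 4 and Psmd13 in 2.

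The next highest was Psmc6 at 0.53, with levels of 3.90, 4.05, 3.78 and 4.29. The lowest members were Psmd10 at -0.38, Psmd5 at -0.06, Psmd7 at 0.04 and Psma4, an alpha ring gene, at 0.09. The 2 members below 0 were thus both assembly helpers. Psmb5 stood at 0.10, Psmb6 at 0.21 and Psmb7 at 0.33. The comparisons share arrays, so a low metformin array enters both the second and the fourth.

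**Figure D4:**
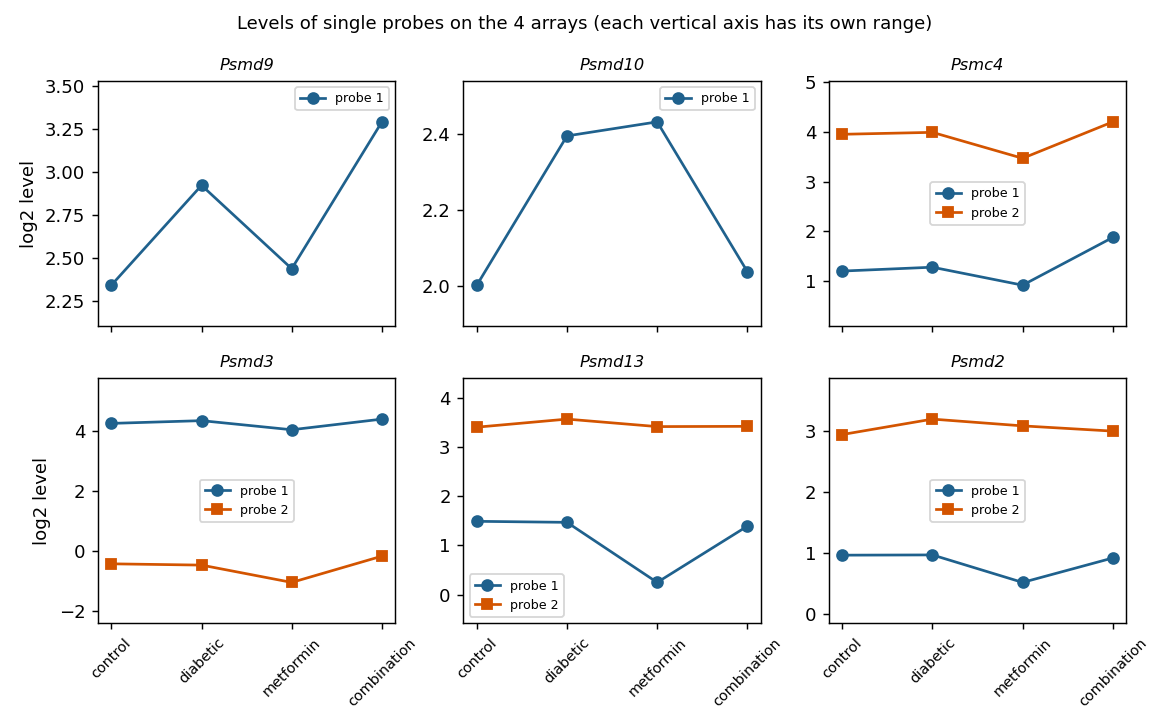
Log2 level (vertical axis, own range in each panel) of every probe of 6 members on the 4 arrays (horizontal axis), 1 line per probe. Both Psmc4 probes are lowest on the metformin array and highest on the combination array, while the low metformin value of Psmd13 is seen on 1 of its 2 probes.

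Set against the control array, the metformin array had a member median of -0.26, equal to that of genes of like brightness. Against probes of like brightness the member median was 0.04, with 19 of 32 members above 0. Psmd13 was at least 1.5-fold lower on the metformin array (-0.61), among 10.8% of 13506 named genes lower by that fold. Its probes differed in sign, at -1.24 and 0.02, so this call rests on the dim probe alone. The combination array had a member median of 0.00 against the control, beside -0.11 for genes of like brightness, and against probes of like brightness the member median was 0.11 with 27 of 33 above 0. Psmd9 was 1.92-fold higher there (0.94), among 13.9% of 13845 named genes higher by that fold. Psmc4 at 0.46 and Psmc6 at 0.39 came next.

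The members differed little among themselves. In diabetic minus control the middle 50% of members spanned 0.20, against 0.65 for all genes and 0.26 for genes of like brightness, and in metformin minus diabetic it spanned 0.14 against 0.63 and 0.21. Where a member had several probes, these differed by a median SD of 0.05 to 0.12 across the 4 comparisons. The probes disagreed in sign for Psmd3 and Psmd13 in the first comparison, for Psma3 and Psmb4 in the second, for Psma4, Psmb6 and Psmd4 in the third, and for Psma4, Psmb4 and Psmd2 in the fourth. With the metformin array set against control they disagreed for Psmd2, Psmd4 and Psmd13. With the combination array set against control they disagreed for Psmb2, Psmb4, Psmd2, Psmd6 and Psmd13. An outlier spot took 7 of the 54 probes from at least 1 array. With outliers kept, Psmb1 would stand at 4.20 on the control array beside 3.88, 3.85 and 4.31 on the others, and Psmd8 at 3.79 on the metformin array beside 3.73, 3.84 and 3.85.

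The inducible counterparts of the catalytic subunits did not share the order of the constitutive genes. The immunoproteasome gene Psmb8, which replaces Psmb5, had levels of 3.55, 3.27, 3.73 and 3.11. Psmb9, which replaces Psmb6, had 3.37, 3.75, 3.46 and 2.32, and was 2.70-fold lower on the combination than on the diabetic array and 2.18-fold lower than on the metformin array. Psmb10, which replaces Psmb7, had 3.97, 3.58, 3.78 and 3.56. None of the 3 was lowest on the metformin array. The thymus subunit gene Psmb11 was not well above background, and the testis subunit gene Psma8 was dim, with levels of -1.98, -1.79, -1.71 and -2.80.

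**Figure D5:**
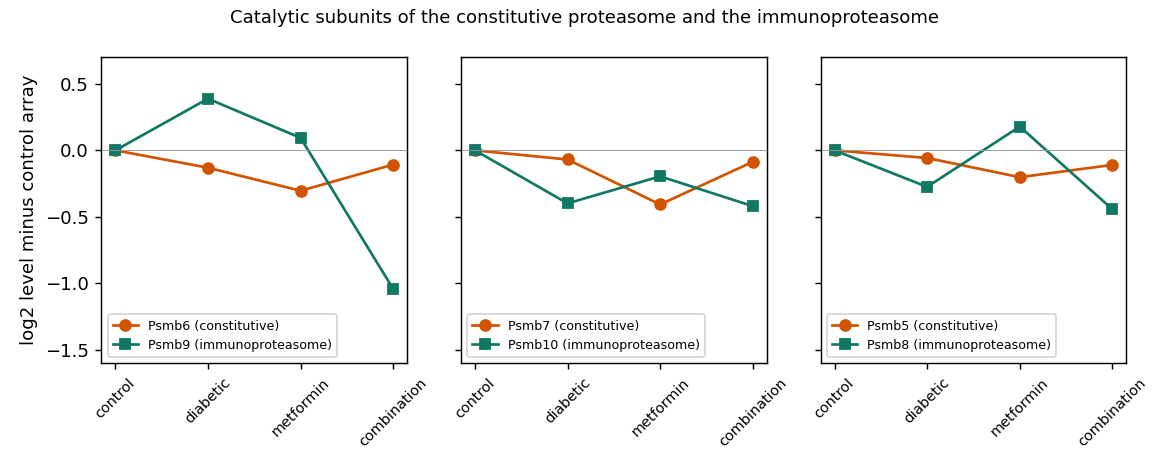
Log2 level relative to the control array (vertical axis) of each catalytic constitutive gene (orange) and its immunoproteasome counterpart (green) on the 4 arrays (horizontal axis). On the combination array Psmb9 is at -1.05 and Psmb6 at -0.11.

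Other genes of the pathway were read from 9 lists of 54 genes, of which 49 were on the array. At least 1.5-fold apart were 5 of 45 measured in diabetic minus control (4 higher, 1 lower), 2 of 41 in metformin minus diabetic (both lower), 6 of 45 in combination minus diabetic (2 higher, 4 lower) and 8 of 42 in combination minus metformin (4 higher, 4 lower). Of all named genes 16.3% were higher and 11.2% lower by that fold in the first comparison, 18.7% and 8.45% in the second, 10.7% and 14.2% in the third, and 8.18% and 19.2% in the fourth. The medians of the pathway genes were 0.06, -0.09, 0.00 and 0.14 in that order, and 0.04, -0.02, -0.03 and 0.00 against probes of like brightness.

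Among activators and the inhibitor, Psmf1, an inhibitor of the core particle, stood at 0.52 in diabetic minus control, and Psme4, an activator, at 0.34 in combination minus metformin. Of the chaperones that build the core, Psmg4 stood at 0.45 in diabetic minus control and Psmg1 at -0.39 in combination minus diabetic. Of the partners of the regulatory particle, Adrm1, a ubiquitin receptor of the base, had levels of 2.69, 2.43, 2.30 and 3.21, with 0.92 in combination minus metformin. It was highest on the combination array, as were Psmc4 and Psmd9. Uchl5, the deubiquitinase that Adrm1 docks, stood at 0.45 in the same comparison.

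The ubiquitin shuttle genes, whose products carry tagged proteins to the proteasome, had a median of -0.40 over 5 genes in metformin minus diabetic and 0.44 over 6 in combination minus metformin. Ddi2 stood at 0.65 in combination minus metformin, and Ubqln2 stood at 0.59 in diabetic minus control. Among ubiquitin genes and activating enzymes, the dim Uba6 stood at -1.07 in combination minus diabetic and Ubb at 0.42 in combination minus metformin. Of the segregase Vcp and its cofactors, Faf1 stood at 0.43 in combination minus diabetic and Nploc4 at 0.35 in combination minus metformin, and none was 1.5-fold apart in these 4 comparisons.

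Among regulators, Nfe2l2, which encodes the oxidative stress factor, had levels of -0.20, 2.26, 1.70 and 2.28, 2.46 higher in log2 on the diabetic than on the control array and low on the control array alone. Nfya, a subunit of nuclear factor Y, was dim with levels of -2.00, -0.94, -1.87 and -2.97. Nfe2l1 stood at -0.19 in diabetic minus control and at 0.38 in metformin minus diabetic.

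Several markers of other cells and of stress differed more between arrays than the members did, and their part in the results above was not tested. The 8 hepatocyte markers had medians of -0.30 in diabetic minus control, -0.27 in metformin minus diabetic, 0.00 in combination minus diabetic and 0.31 in combination minus metformin. Against probes of like brightness these medians were -0.05, -0.12, -0.08 and 0.05. Their summed level, in multiples of the 75th percentile signal, was 287, 240, 195 and 253, so it too was lowest on the metformin array. Lymphocyte markers (9 genes, Cd79a without a usable value above background on any array) summed to 3.88, 1.18, 8.63 and 2.35, and proliferation markers (7 genes) to 3.84, 1.07, 8.95 and 1.13, both highest on the metformin array. Matrix and stellate cell markers (7) summed to 44.0, 26.6, 50.2 and 35.9, Kupffer cell markers (7) to 56.7, 42.4, 47.5 and 33.1, endothelial markers (6) to 39.0, 28.5, 35.7 and 33.9, and erythroid markers (5) to 61.1, 42.2, 45.9 and 53.0. Neutrophil markers (6) summed to 14.9, 5.99, 8.61 and 3.38, and cholangiocyte markers (4) to 4.34, 3.17, 4.36 and 2.05. Not every marker had a usable value above background on every array. In array order, 6, 5, 3 and 4 neutrophil markers and 7, 6, 6 and 5 proliferation markers had one. For matrix and stellate cell markers the number was 7, 6, 6 and 7, for Kupffer cell markers 6, 7, 7 and 7. For erythroid markers it was 5, 4, 4 and 4, for lymphocyte markers 7, 7, 8 and 7, for hepatocyte markers 8, 8, 8 and 7. Exocrine pancreas genes (11) summed to 150, 17.2, 38.8 and 8.89, and 6 of them had no usable value above background on the combination array. Heat shock genes (7) summed to 131, 101, 45.6 and 41.1, and unfolded protein response genes (10) to 120, 132, 67.7 and 65.2, low on both treated arrays.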

How the data were processed

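Spot intensities were deposited as scanner files, made per the file headers with Feature Extraction 11.5.1.1 on a grid built for mm9 (version 10.7 according to the submitters' processing notes). The processed signal was already corrected for background. The 4 arrays share 1 slide and 1 scan time. The authors also deposited a table of log2 values, normalized in GeneSpring per the labels' protocols by a method not given in the sources used here. Its columns correlated at 0.999 to 1.00 with the log2 processed signal across probes, so its scale and direction are known. All its columns had a 75th percentile of 11.139 and medians of 7.846 to 7.847. Quantile normalization also makes columns alike in this way, so the table need not be independent of the quantile-normalized values used here.

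Control spots and spots marked as non-uniform or population outliers (2.18% to 5.35% per array) were left out, spots of a probe were averaged, and the array's 75th percentile (signal of 1560 to 2167) was taken off in log2. A probe counted where at least 50% of its spots were well above background on both arrays. Gene values are means over probes, minus the median over all named genes. Levels printed per array use 1 constant per array (0.01 for diabetic, -0.01 for metformin, -0.19 for combination), so their differences can depart from the centred differences by up to 0.03. Accessions were matched to symbols through the RefSeq table of GRCm38.p6, naming 59.7% of 56605 probes. Probes were not checked for hybridization to processed pseudogenes of these genes.

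A difference of at least 1.5-fold was counted, and 2-fold as an alternative. No test was possible with 1 array per group. The members, the gene lists and the tests were chosen with earlier results of these data known. Named are the catalytic genes, the 4 highest and 4 lowest members per comparison, members at least 1.5-fold apart, and the 2 genes furthest from 0 in each pathway list. Psmc6 in the fourth comparison, Psmb10, Ubqln2 and Nfe2l1 fall outside that rule and were chosen with their values in view. One gene that the rule names is not reported here. The alternatives were no centring, outliers kept, quantile normalization, the authors' table, normexp (offset 50) with limma 3.58.1 on the median signal (a mean signal was not used here), no background filter, probes above background on all arrays, the brightest probe, helpers counted as regulatory, 2-fold, and, added later, centring on the 500 other probes of like brightness. Python 3.11.15, numpy 2.4.6, pandas 2.3.3 and R 4.3.3 were used, and the scripts were tested on simulated data.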

Additional observations from a re-analysis of the deposited data

How the results depend on the processing

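Of 116 alternative values for 12 results, 94 stayed within the set limits and 22 did not. Staying within the limits did not require the same sign: the diabetic minus control median became 0.010 with normexp and was counted within them. The median in diabetic minus control (-0.06) became 0.060 with quantile normalization, 0.10 in the authors' table and 0.076 against probes of like brightness, so its sign is not settled, and the core minus regulatory gap (-0.19) became -0.074, -0.064 and -0.056 in the same order. The count of members at least 1.5-fold apart there (0) became 1, Psmd9, with no centring, with normexp and with no background filter. In metformin minus diabetic the median (-0.14) became -0.022 in the authors' table, -0.044 with quantile normalization and -0.029 against probes of like brightness, and the count (1) became 0 at 2-fold and with the brightest probe. In combination minus diabetic the median (0.07) became -0.13 with no centring, where the median of all genes is -0.20, 0.010 in the authors' table and 0.011 against probes of like brightness. In combination minus metformin the median (0.27) became 0.075 with no centring, 0.066 in the authors' table and 0.086 against probes of like brightness, and the count (4) became 0 at 2-fold and 2 with no centring, quantile normalization, the authors' table, the brightest probe and probes of like brightness. The core minus regulatory gap there (-0.049) ran from -0.13 in the authors' table to 0.041 with the brightest probe, so its sign is not settled. Beyond the construction of each alternative the cause was not tested. No paired analysis was possible because each group has 1 array. The number of arrays limits every statement. All kept member probes were well above background, but the differences of Psmd3 and Psmd13 were carried mostly by their dim probes.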
